A study of Mus musculus with 4 samples.

Results

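The members of 9 gene families of innate immunity, many of them arrayed in tandem clusters, were examined for DNA copy number in mouse liver tumours. Members were all autosomal genes whose name in the array files begins with Klr, Gbp, Slfn, H2-, Naip, Skint, Nlrp, Ifi or Trim, a rule that used no measured value. It gave 152 genes of 17965 named genes on chromosomes 1 to 19, covered by 490 of 161460 autosomal probes. By family there were 58 Trim, 19 Nlrp, 19 Klr, 11 Ifi, 11 Skint, 10 Gbp, 10 Slfn, 10 H2- and 4 Naip genes. A RefSeq gene table of GRCm38.p6, used for names only, lists 250 genes with these prefixes, of which 150 had a probe under their current symbol. The gap was widest for the H2- genes, with 9 of 50, the Ifi genes, with 11 of 34, and the Klr genes, with 18 of 33. The series had 4 samples, each the genomic DNA of a liver tumour from 1 mouse labelled FAH-/- Trp53-/- and male. FAH breaks down a toxic intermediate of tyrosine metabolism, Trp53 encodes the tumour suppressor p53, and NTBC is the drug that keeps mice without FAH alive by blocking an earlier step. Drinking water normally held 7.5 mg/L NTBC, and the mice received 2.5% of that dose for 6 months. Every tumour (239, 240, 244 and 252) was labelled with Cy5 and set against 1 pool of liver DNA from 3 male FAH+/+ Trp53+/+ littermates, labelled with Cy3, so the spread among normal livers is left out of every test. Ages and strains were not given in the sources used here, and no DNA from non-tumour tissue of the same mice was analysed here, so differences acquired in the tumour and differences already present in the mouse cannot be told apart.

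Innate immunity rests on germline-encoded sensors and effectors rather than on rearranged receptors. Some Nlrp proteins and the Naip proteins are cytosolic sensors that assemble inflammasomes. Ifi, Gbp, Slfn and many Trim genes are induced by or act in interferon responses. Klr genes encode lectin-like receptors of natural killer cells, and H2- genes encode the major histocompatibility complex of the mouse. Skint genes encode immunoglobulin-superfamily proteins of skin and thymic epithelium. Many of these genes arose by local duplication, and mouse strains are known to differ in their number and sequence, as at Nlrp1b, Naip5, Ifi202b, the Klra (Ly49) cluster and the Trim12 and Trim30 genes.

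The value given throughout is the log2 ratio of tumour over pool signal, centred on each array's autosomal median, so that 0 is the typical autosomal probe. In diploid cells a loss of 1 of 2 copies in every cell would give -1 and a gain of 1 copy would give 0.58. The probes that carry the main differences are shown first, at their mm9 positions and in the orientation given by the array files, whose strand is not stated there. At the Nlrp1 genes the probes below run from the unaffected side into the low stretch, so that the position of the edge can be read.
Nlrp1a probe 5, chr11:70951556-70951615: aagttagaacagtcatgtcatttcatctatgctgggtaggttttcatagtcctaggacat
Nlrp1b probe 2, chr11:70976924-70976983: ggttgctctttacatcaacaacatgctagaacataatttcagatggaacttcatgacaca
Nlrp1b probe 3, chr11:70989862-70989921: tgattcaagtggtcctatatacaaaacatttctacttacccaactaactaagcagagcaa
Nlrp1b probe 6, chr11:71032791-71032850: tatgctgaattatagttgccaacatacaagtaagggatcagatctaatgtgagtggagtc
Nlrp1c-ps probe 5, chr11:71096957-71097016: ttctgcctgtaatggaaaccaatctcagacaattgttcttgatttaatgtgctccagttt

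At the Trim genes of chromosome 7 each of the following is the sole probe of its gene, except for Trim6, which has 2. They are shown because values far below -1, at Trim12a and Trim30b, lie beside values above -1 at closely related neighbours.
Trim6 probe 1, chr7:111374510-111374569: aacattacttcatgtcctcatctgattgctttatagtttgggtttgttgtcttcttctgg
Trim34a probe 1, chr7:111393528-111393579: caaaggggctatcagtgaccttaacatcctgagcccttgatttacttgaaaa
Trim12a probe 1, chr7:111459305-111459364: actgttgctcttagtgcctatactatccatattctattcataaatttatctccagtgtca
Trim12c probe 1, chr7:111500430-111500483: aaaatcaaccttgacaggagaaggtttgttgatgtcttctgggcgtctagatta
Trim30b probe 1, chr7:111506968-111507023: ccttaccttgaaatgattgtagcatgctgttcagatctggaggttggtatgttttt

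The Naip5 and Ifi202b pairs are shown because the probes of a pair gave unlike values within 1 gene. Capitals mark a run of 10 or more of the same base.
Naip5 probe 1, chr13:100985137-100985196: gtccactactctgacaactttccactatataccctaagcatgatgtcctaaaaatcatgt
Naip5 probe 2, chr13:101012079-101012138: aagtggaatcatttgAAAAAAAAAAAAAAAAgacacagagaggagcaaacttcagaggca
Ifi202b probe 1, chr1:175895321-175895380: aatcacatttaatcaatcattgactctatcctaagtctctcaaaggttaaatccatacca
Ifi202b probe 2, chr1:175906149-175906208: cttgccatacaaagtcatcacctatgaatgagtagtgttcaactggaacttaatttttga

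Part of Nlrp1b, the inflammasome sensor activated by anthrax lethal factor, and all of the probed length of its neighbour Nlrp1c-ps, a pseudogene of the same group, gave far lower signal in the tumours than in the pool, while Nlrp1a alongside did not. Nlrp1b averaged -2.82, -2.76, -2.85 and -2.85 in tumours 239, 240, 244 and 252 over its 6 probes. Nlrp1c-ps averaged -3.44, -3.42, -3.48 and -3.61 over 5 probes. Nlrp1a, which also encodes an inflammasome sensor, lay at 0.05, 0.07, 0.08 and -0.01 over 6 probes. All 4 tumours were low at the former pair of genes and none at the latter. To set aside shifts of whole chromosomes or regions, each gene was also expressed as its difference from neighbouring probes, the mean of the non-member probes within 1 Mb of it. That difference was -2.86 ± 0.04 (SE) for Nlrp1b and -3.53 ± 0.04 for Nlrp1c-ps, both at an adjusted p of 7.54e-07 by limma with Benjamini-Hochberg adjustment over all genes, and the value was below 0 in 4 of 4 tumours for each. For Nlrp1a it was 0.00 ± 0.03 (limma adjusted p = 0.938). Of the 17965 named genes, 8 had a lower mean log2 ratio than Nlrp1b and 4 a lower one than Nlrp1c-ps, and 9 and 4 with every probe whose tumour signal was not well above background on any array at its bound.

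The edge of the low stretch fell inside Nlrp1b. Its probe 1, at chr11:70967264-70967323, read 0.11, 0.47, 0.64 and 0.57 in the same order of tumours, and probe 2 read -0.20, 0.13, 0.06 and -0.18. Probe 3, the next along the chromosome, read -4.47, -4.34, -4.51 and -4.19. The change between probes 2 and 3 was thus present in each tumour and placed between 70976983 and 70989862. Probes 4, 5 and 6 averaged -3.51, -3.13 and -6.31, and the 5 Nlrp1c-ps probes -4.62, -3.70, -2.98, -4.58 and -1.57. An unnamed probe between the 2 genes, at chr11:71045491-71045550, was less low, at -0.93, -1.11, -1.01 and -0.90, and another at chr11:71107044-71107103 averaged -2.72, with tumour signal not well above background on any array and a bound of -2.29. The next probe, at chr11:71121491-71121550, averaged 0.51 and marked the far edge.

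Counted as a run of at least 3 adjacent probes at -0.5 or lower in all 4 tumours, this stretch held 11 probes over 117.2 kb, chr11:70989862-71107103, of which 9 belonged to members. Its mean was -3.44 in tumour 239, -3.44 in 240, -3.54 in 244 and -3.58 in 252, so the tumours differed by an SD of 0.07 around -3.50. The autosomes held 40 such runs, 2 of them with member probes. Such runs took in 10 of the 490 member probes (2.04%), against 0.0855% of autosomal probes. With the 5 probes of this run whose tumour signal was not well above background on any array at their bounds, its mean was -3.13. At 4 of the 9 member probes the tumour signal was not well above background on any of the 4 arrays, so their ratios are bounds. Against the lowest signal well above background, the pool exceeded the tumours at least 16.6-fold at Nlrp1b probe 3, at least 24.1-fold at Nlrp1b probe 6, at least 4.49-fold at Nlrp1c-ps probe 3 and at least 13.9-fold at Nlrp1c-ps probe 4. With these probes at their bounds the gene means were -2.48 for Nlrp1b and -3.17 for Nlrp1c-ps. The pool signal was well above background at all of them. With only probes that were bright in both colours on all 4 arrays, the difference of Nlrp1b from its neighbours was -1.60. Trp53, labelled -/- in these mice, lies on the same chromosome, 1.56 Mb from the Nlrp1b probes. Its 2 probes averaged 0.07, but the labels do not say which part of the gene was removed, so that value is no test of the label. The 154 probes up to 1 Mb on either side of the Nlrp1 genes averaged 0.05.

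**Figure D1:**
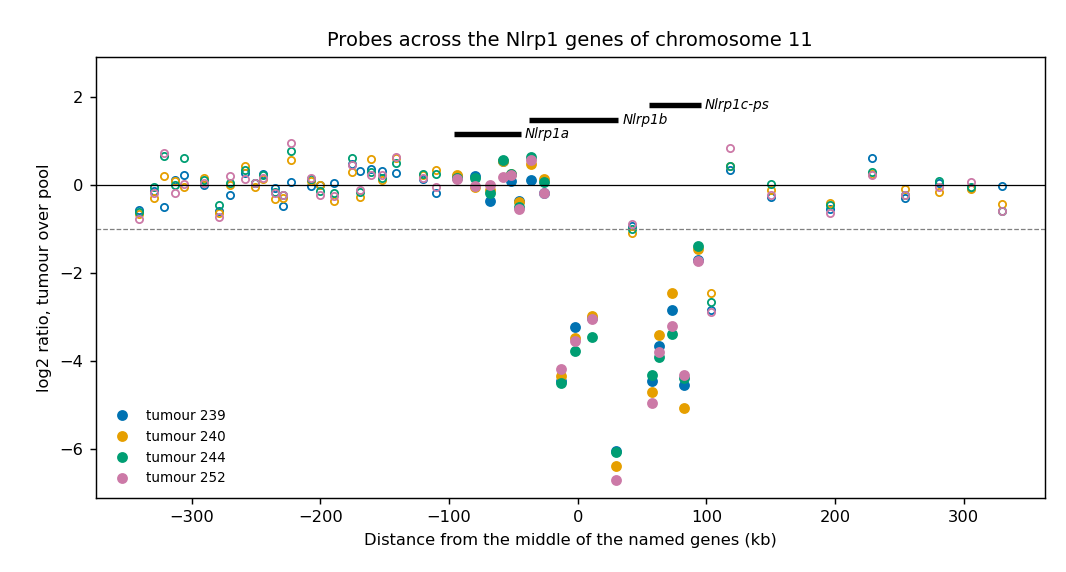
Log2 ratio of tumour over pool (vertical axis) for each probe around Nlrp1a, Nlrp1b and Nlrp1c-ps on chromosome 11. The horizontal axis is the distance in kb from the middle of these named genes, and each of the 4 tumours has a colour. Filled symbols are probes of member genes, open symbols other probes, black bars the span of each named gene's probes, and the dashed line lies at -1. Nlrp1a and the first 2 Nlrp1b probes lie near 0, and the 9 member probes to their right lie between -1.38 and -6.71.

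A second low stretch lay among the Trim genes of chromosome 7, which encode close relatives of the retroviral restriction factor TRIM5. Trim12a, with 1 probe, read -3.69, -3.84, -3.36 and -3.60, a difference from its neighbours of -3.52 ± 0.11 (SE; limma adjusted p = 3.86e-05). Trim30b, also with 1 probe, read -2.44, -2.15, -2.51 and -2.17, a difference of -2.21 ± 0.05 (limma adjusted p = 1.33e-05). Both genes were low in 4 of 4 tumours, and of all named genes 2 had a lower mean than Trim12a (1 with dim probes at their bounds) and 10 a lower mean than Trim30b. Trim12c, which lies between them, read only -0.42, -0.42, -0.52 and -0.21 and differed from its neighbours by -0.29 ± 0.05 (limma adjusted p = 0.00523). Trim34a read -0.46, -0.75, -0.87 and -0.82, a difference of -0.62 ± 0.07 (limma adjusted p = 0.00178). Trim34a and Trim12c were thus below their neighbours in every tumour but above the level of a single-copy loss. These 4 genes rest on 1 probe each, so their values describe 60 bases or fewer.

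The remaining genes of the cluster were near their neighbours. Trim6, at the proximal end, averaged -0.09 over 2 probes, with a difference of 0.02 (limma adjusted p = 0.739). Trim30a, which has 6 probes, averaged -0.15, -0.14, -0.29 and -0.27, a difference of -0.11 ± 0.04 (limma adjusted p = 0.0523), and without tumour 239 it passed the threshold of 0.05, at an adjusted p of 0.0456. Its probes did not move as a unit. Probe means ran from -0.78 to 0.75, and the highest, probe 3, read 0.65, 0.84, 0.56 and 0.95 beside a probe 2 of -0.81, -0.65, -0.80 and -0.88. Probes 2 and 3 each kept their sign in all 4 tumours, while probe 4 read 0.40, 0.33, 0.12 and -0.14. Trim30d averaged -0.16, -0.14, -0.63 and -0.16 over 3 probes, with tumour 244 apart from the rest. Its raw ratio was called lower (limma adjusted p = 0.0328), but its difference from neighbours, -0.17, was not (limma adjusted p = 0.0635). With the median in place of the mean over probes both genes passed the test against neighbours. The difference was then -0.31 for Trim30a (limma adjusted p = 0.00352) and -0.22 for Trim30d (limma adjusted p = 0.0116).

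In probe terms the Trim12a stretch ran over 3 probes, chr7:111430424-111459364, at -2.67, -2.66, -2.46 and -2.66 in the 4 tumours. Its other 2 probes carry the name of an Ensembl transcript and averaged -1.44 and -2.77, the latter with tumour signal well above background on 2 of the 4 arrays. The probe between Trim12a and Trim12c had the same transcript name and averaged -0.49, so a deep value and a shallow one occurred under 1 name. Beyond Trim30d a further run of 3 unnamed probes, chr7:111656562-111683983, averaged -3.38 as measured. At 2 of the 3 the tumour signal was not well above background on any array, and with these at their bounds the run averaged -2.53. Over the whole cluster from Trim6 to Trim30d, the 15 member probes differed by -0.55 ± 0.03 (SD, n = 4) from the probes up to 1 Mb outside it. The 8 other probes inside the cluster had a mean of -0.72, against -0.62 for the members. Few probes set both means, those of Trim12a and Trim30b among the members and the 2 at -1.44 and -2.77 among the others. The rest ran from -0.78 to 0.75 among the members and from -0.56 to 0.25 among the others. The cluster and the Fah probes on the same chromosome are 19.7 Mb apart, and the Fah probes averaged 0.04.

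**Figure D2:**
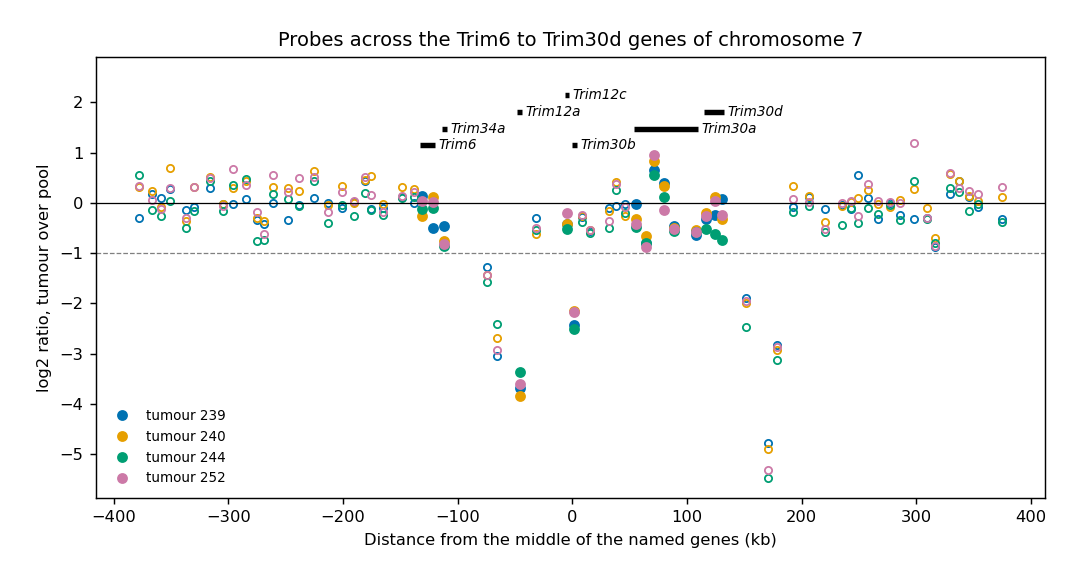
Log2 ratio of tumour over pool (vertical axis) for each probe of the Trim6 to Trim30d cluster on chromosome 7, by distance in kb from its centre (horizontal axis), with a colour for each tumour. Filled symbols are probes of member genes, open symbols other probes, black bars the span of each named gene's probes, and the dashed line lies at -1. Trim12a (mean -3.62) and Trim30b (mean -2.32) stand below Trim12c between them (mean -0.40), and 3 unnamed probes beyond Trim30d average -3.38 as measured and -2.53 with 2 of them at their bounds.

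Altogether 15 of the 490 member probes (3.06%) were at -1 or lower in all 4 tumours, against 0.635% of autosomal probes. Of these, 9 lay in Nlrp1b and Nlrp1c-ps, 2 were those of Trim12a and Trim30b, and 4 stood alone in genes whose other probes were not low. In 2 member probes (0.408%) the ratio was 0.58 or higher in all 4, against 0.64% of autosomal probes. By whole genes, 4 of 152 (2.63%) were at -1 or lower in all 4 tumours, against 0.262% of named genes, and these were Nlrp1b, Nlrp1c-ps, Trim12a and Trim30b. Neighbouring probes are not independent, and 10 of the 15 lie in the Nlrp1 and Trim12a runs, with Trim30b apart from the Trim12a run.

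The 4 lone low probes were alike between tumours, with SDs of 0.03 to 0.24. Naip5, whose product recognises bacterial flagellin, had a probe 2 at -1.04, -1.07, -1.10 and -1.05 and a probe 1 at 0.11, 0.01, 0.02 and 0.34. The low Naip5 probe holds the run of A marked above. Of 161460 autosomal probes 364 hold a run of 10 or more of 1 base, and of the 1025 probes low in all 4 tumours the Naip5 probe was the only one. In Skint6 probe 32 of 42 read -1.81, -1.43, -1.93 and -1.53, while the probes on either side averaged -0.35 and -0.31. In Skint5 probe 15 of 30 read -1.18, -1.34, -1.53 and -1.41, the probe before it averaged 0.22 and the one after it -0.86. Trim36, a ubiquitin ligase gene on chromosome 18, held the lowest lone probe and the highest member probe next to each other. Its probe 1 read 0.73, 1.04, 1.49 and 1.05 and its probe 2 -2.85, -2.91, -2.65 and -2.70, while probes 3 and 4 averaged 0.22 and 0.05. The other high probe, in the natural killer receptor gene Klra5, read 0.97, 0.64, 0.62 and 1.14 beside a companion at -0.35, -0.42, -0.43 and -0.12. A gene mean over 2 to 4 such probes describes none of them.

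Across all 152 members, the share that differed from their neighbours was close to that of the genome, though not under every setting. By limma at an adjusted p under 0.05, 73 members (48.0%) differed from their neighbours, against 48.7% of all named genes. Of these, 30 (19.7%) were lower and 43 (28.3%) higher, against 22.9% and 25.7%. Of the raw log2 ratios, 29 members were called lower than 0 and 28 higher, against 17.7% and 21.2% of all genes, together 37.5% against 38.8%. The median difference from neighbours was 0.02 for members and 0.01 for all genes, and 141 of the 152 members lay within 0.5 of their neighbours. A mean difference of -0.5 or lower was found in 7 members (4.61%, against 2.53% of genes) and one of 0.5 or higher in 4 (2.63%, against 2.15%). The share called moved with the number of probes, from 56.5% of all genes with 1 probe through 50.5% with 2 to 4 to 36.8% with 5 or more, and among the members it was 33 of 66, 31 of 57 and 9 of 29. Under normexp, a model-based background correction of the raw intensities, 55 members (36.2%) were lower than their neighbours and 54 (35.5%) higher, against 27.9% and 33.7% of all genes. Among the 55 members with at least 3 probes 22 (40%) were lower and 10 (18.2%) higher, against 24% and 28.5% of all such genes. By raw ratio 58 members (38.2%) were lower under normexp, against 27% of all genes. Without tumour 244 the count of higher members fell to 28, and without tumour 240 the raw counts fell to 19 lower and 18 higher. No share over all genes is given for these fits, so the falls cannot be set against the genome. All arrays used the same pool and the same probes. Over the 490 member probes the differences from neighbours correlated between tumours with r of 0.93 to 0.95. Over the 475 that were not low in all 4, r was 0.69 to 0.72 for the pairs with tumour 239. For the other pairs it was 0.82 to 0.83.

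**Figure D3:**
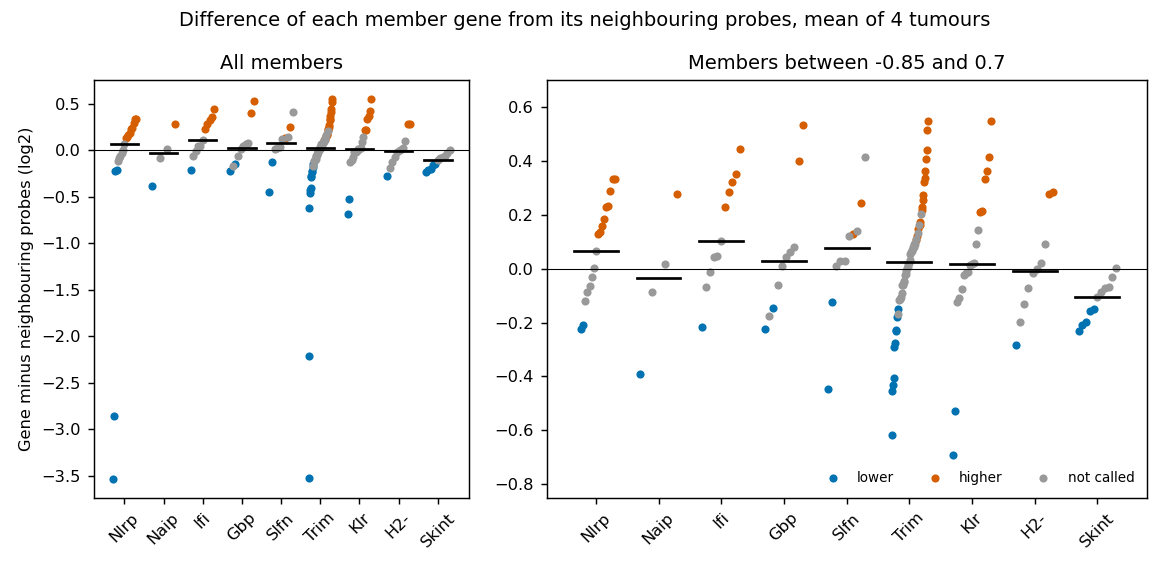
Difference of each of the 152 member genes from its neighbouring probes (log2, vertical axis), as the mean over 4 tumours, by family (horizontal axis). Nlrp1c-ps, Trim12a, Nlrp1b and Trim30b lie between -3.53 and -2.21, and 141 of the 152 genes lie within 0.5 of 0.

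Within the Nlrp family, the genes other than Nlrp1b and Nlrp1c-ps differed from their neighbours by -0.22 to 0.33. Of 19 Nlrp genes 9 were higher, 4 lower and 6 passed no threshold, where 25.7% of all genes were higher and 22.9% lower, and the median difference was 0.07, while the family mean of -0.26 was set by Nlrp1b and Nlrp1c-ps. Nlrp3, the sensor of the best-studied inflammasome, read 0.22, 0.30, 0.19 and 0.32 and was 0.23 ± 0.04 (SE) above its neighbours (limma adjusted p = 0.00759). Probe 1 of Nlrp3 averaged 0.07 and probe 2 averaged 0.44. Nlrp12, a regulator of inflammatory signalling, was the highest of the family at 0.33 ± 0.09 (limma adjusted p = 0.0217), but tumour 239 read -0.09 where the others read 0.54, 0.15 and 0.39, and the adjusted p was 0.0853, 0.0743 and 0.0817 without tumour 240, 244 or 252 in turn. Under normexp its difference was 0.16 (limma adjusted p = 0.0951). The oocyte-expressed Nlrp4 and Nlrp9 groups went both ways, with Nlrp4a 0.23 above its neighbours (limma adjusted p = 0.00381) and Nlrp9a at -0.21 (limma adjusted p = 0.00363).

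The 4 Naip genes, whose proteins bind bacterial ligands for the NLRC4 inflammasome, lie within 0.302 Mb on chromosome 13. Naip5 differed from its neighbours by -0.39 ± 0.04 (SE) (limma adjusted p = 0.00143), which is a mean of the 2 unlike probes shown above. Naip6 read 0.34, 0.25, 0.11 and 0.07 and was 0.28 ± 0.06 above its neighbours (limma adjusted p = 0.0108). Naip2, which binds the rod protein of bacterial secretion systems, differed by -0.09 (limma adjusted p = 0.0915) and Naip1 by 0.02 (limma adjusted p = 0.738), each over 5 probes. Under normexp Naip1 turned to -0.22 (limma adjusted p = 0.00355) and Naip6 rose to 0.52 (limma adjusted p = 0.000224). The pool signal of Naip1 probe 3 was not well above background on any array, and with only probes well above background in both colours, which leaves it out, Naip1 lay at -0.16 (limma adjusted p = 0.047). The 8 probes inside the cluster that carry no Naip name averaged 0.40, 0.49, 0.29 and 0.56, above both the Naip probes, at -0.12 on average, and the flanks, at -0.09.

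The Ifi prefix joins unrelated interferon-inducible genes. Ifi204, a DNA sensor of the PYHIN group on chromosome 1, read 0.23, 0.03, 0.39 and 0.25 and was 0.23 ± 0.04 (SE) above its neighbours (limma adjusted p = 0.00661), but 0.03 above them under normexp (limma adjusted p = 0.465). Probe 1 of Ifi204 averaged -0.01 and probe 2 averaged 0.47. Ifi202b, a PYHIN gene that antagonises DNA sensing, did not pass the test (0.05; limma adjusted p = 0.525), and lay at -0.39 under normexp (limma adjusted p = 0.00063). Its probe 1 read -0.47, -0.48, 0.71 and -0.17, the widest spread of the printed probes, while probe 2 read 0.21, 0.20, 0.18 and 0.16. Tumour 244 alone was above 0 at the former, where the surrounding probes of that tumour averaged 0.18. Ifit1, which binds foreign RNA caps, read 0.26, 0.17, 0.35 and 0.21 (difference 0.28 ± 0.03; limma adjusted p = 0.00186). Ifit2 read 0.09, 0.29, 0.68 and 0.56 (difference 0.44 ± 0.10; limma adjusted p = 0.0123), and under normexp the difference turned to -0.14 (limma adjusted p = 0.0582). Ifih1, the RNA sensor MDA5, lay at -0.01 over 5 probes (limma adjusted p = 0.831), and at 0.13 under normexp (limma adjusted p = 0.0148) and 0.15 by the median over its probes (limma adjusted p = 0.0259). Ifitm10 lay at -0.22 ± 0.05 (limma adjusted p = 0.0167), which became 0.04 under normexp (limma adjusted p = 0.355) and lost the call without tumour 244 or 252 (limma adjusted p = 0.0701 and 0.0657).

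Guanylate-binding proteins, encoded by Gbp genes, attack vacuoles that hold pathogens. Gbp5 had the largest difference of the family, at 0.24, 0.40, 0.51 and 0.67 and 0.53 ± 0.07 (SE) above its neighbours (limma adjusted p = 0.00317), and both of its probes were above 0 in every tumour. Gbp2, in the same cluster, lay at 0.04 (limma adjusted p = 0.349). No threshold was passed by 6 of the 10 Gbp genes, and by 9224 of all 17965 named genes. Gbp8, on chromosome 5, differed from its neighbours by -0.22 ± 0.05 over 4 probes (limma adjusted p = 0.0101).

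Schlafen genes regulate growth and antiviral defence in immune cells. Slfn4 read 0.28, 0.27, 0.33 and 0.25, a difference of 0.25 ± 0.03 (SE; limma adjusted p = 0.00223). Slfn5 read -0.31, -0.32, -0.34 and -0.63, a difference of -0.45 ± 0.06 (limma adjusted p = 0.00273) on 1 probe, and under normexp of 0.02 (limma adjusted p = 0.699). Slfn9, also with 1 probe, read 0.87, -0.18, 0.62 and 0.52. Its raw ratio was called higher (limma adjusted p = 0.0241), but its difference from neighbours was not (limma adjusted p = 0.0750). The pool signal of that probe was well above background on none of the 4 arrays and the tumour signal on 3, so these ratios have no firm base. Its mean difference of 0.41 became 0.62 without tumour 240 (limma adjusted p = 0.00993) and -0.85 under normexp (limma adjusted p = 4.51e-05). Slfn2, in which a mutation is known to deplete T cells, lay at 0.14 (limma adjusted p = 0.076), and at 0.19 without tumour 252 (limma adjusted p = 0.0482).

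The Trim genes as a whole, which encode ubiquitin ligases with roles from antiviral signalling to muscle upkeep, were spread over 15 chromosomes. Of all 58 Trim genes 12 were lower than their neighbours, 16 higher and 30 passed no threshold, and the median difference was 0.03. Of all named genes 22.9% were lower and 25.7% higher. Trim11 read 0.37, 0.44, 0.58 and 0.69 on 1 probe, a difference of 0.55 ± 0.05 (SE; limma adjusted p = 0.00109) that fell to 0.02 under normexp (limma adjusted p = 0.664). Trim45 read 0.52, 0.34, 0.56 and 0.87, a difference of 0.52 ± 0.07 over 2 probes (limma adjusted p = 0.00336), and was -0.44 under normexp (limma adjusted p = 0.000167), so its direction depends on the background correction. Trim25, the ligase that activates the RNA sensor RIG-I, lay at -0.09 (limma adjusted p = 0.0938), and at -0.36 under normexp (limma adjusted p = 0.000522). Trim28, a co-repressor that silences retroelements, read 0.23, -0.25, -0.44 and -0.18, with tumour 239 alone above 0. Its difference from neighbours was -0.10 (limma adjusted p = 0.439), and -0.25 without that tumour (limma adjusted p = 0.00504).

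Among the natural killer receptor genes of chromosome 6, single genes went both ways within 1 cluster. Klrb1f, a gene of the NKR-P1 receptors, read -0.50, -0.93, -0.95 and -0.73 and differed from its neighbours by -0.69 ± 0.07 (SE) (limma adjusted p = 0.00125). Klrc2, an NKG2-type receptor gene, read 0.13, 0.51, 0.32 and 0.72, a difference of 0.55 ± 0.09 (limma adjusted p = 0.00446), and Klra1, which encodes the inhibitory receptor Ly49A, read 0.15, 0.04, 0.12 and 0.31, a difference of 0.33 ± 0.05 (limma adjusted p = 0.00505). Each of the 3 genes has 1 probe. Klrk1, which encodes the activating receptor NKG2D, lay at 0.01 (limma adjusted p = 0.839) and Klrb1c, which encodes the NK1.1 antigen, at 0.09 (limma adjusted p = 0.374), which turned to -0.40 under normexp (limma adjusted p = 0.00136). The name Klra22 covers 17 probes between 129923855 and 130328474, a span that may take in several Klra genes, and its mean difference was -0.02 (limma adjusted p = 0.702).

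The H2- and Skint families showed small differences. H2-Ab1, which encodes a chain of the class II molecule that presents peptides to T cells, read 0.46, 0.43, 0.28 and 0.23, a difference of 0.29 ± 0.05 (SE; limma adjusted p = 0.00592). H2-M11 read -0.19, -0.37, -0.26 and -0.22, a difference of -0.28 ± 0.05 (limma adjusted p = 0.00592). No threshold was passed by 7 of 10 H2- genes, and by 9224 of all 17965 named genes. The classical class I genes H2-K1 and H2-D1 were not among the named probes. Of the 11 Skint genes, 5 were lower than their neighbours and the other 6 passed no threshold, where 22.9% of all genes were lower and 25.7% higher. Skint9 read -0.29, -0.29, -0.40 and -0.22, a difference of -0.23 ± 0.03 over 6 probes (limma adjusted p = 0.00335). Skint1, which selects a lineage of epidermal T cells, differed by -0.15 ± 0.05 (limma adjusted p = 0.0364), and its adjusted p was 0.0987, 0.129 and 0.131 without tumour 240, 244 or 252. Skint7 lay at 0.00 (limma adjusted p = 0.989), and at -0.18 under normexp (limma adjusted p = 0.0479).

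Family mean log2 ratios followed their neighbouring probes in some families and not in others. In tumour 244 the Klr genes averaged -0.21 and their neighbouring probes -0.27, and the Naip genes averaged -0.24 and their neighbours -0.24. In the other 3 tumours the Klr means were 0.01, -0.10 and 0.03. The Skint genes averaged -0.35 in tumour 244, against -0.19, -0.12 and -0.14 in tumours 239, 240 and 252, and there the neighbours averaged -0.22. Taken against neighbours, the Skint mean was -0.14, -0.10, -0.13 and -0.10, and the spread between tumours shrank from an SD of 0.105 to one of 0.020. The Slfn means, at 0.16, 0.04, 0.11 and 0.01, varied as much against neighbours as on their own, with an SD of 0.07 either way. The Ifi genes lay above their neighbours by 0.07, 0.11, 0.18 and 0.20, without a test over the family, and that mean turned to -0.05 under normexp. The Nlrp mean against neighbours was -0.31, -0.23, -0.27 and -0.25.

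**Figure D4:**
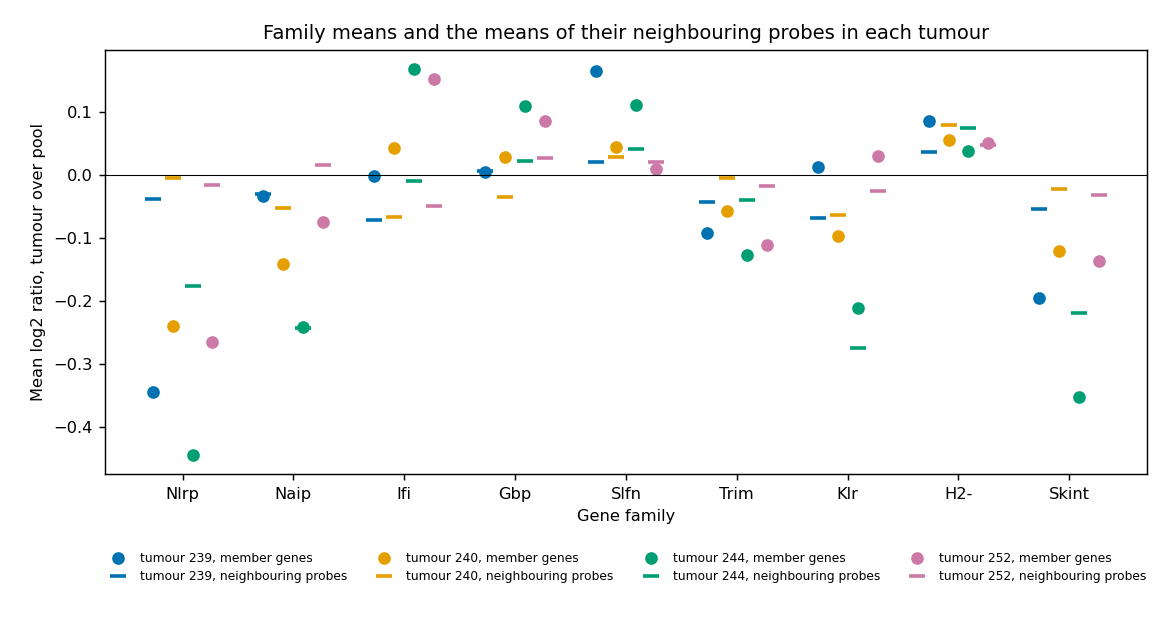
Mean log2 ratio of the member genes of each family (points) and of their neighbouring probes (bars) in each of the 4 tumours, with families along the horizontal axis and log2 ratio of tumour over pool on the vertical axis. In tumour 244 the Klr and Naip points lie at -0.21 and -0.24 beside bars at -0.27 and -0.24.

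The members formed 14 clusters, each of 3 or more genes of a family with gaps of at most 1 Mb, and 86 of the 152 genes lay in them. The Nlrp1 cluster differed from its flanks by -2.06 ± 0.05 (SD, n = 4) and the Trim6 to Trim30d cluster by -0.55 ± 0.03, the latter mostly through Trim12a and Trim30b. The Skint cluster, 115 probes over 2.283 Mb of chromosome 4, was among the lower clusters, at -0.22, -0.15, -0.14 and -0.17. Its 35 probes without a Skint name were also low, at -0.17 against -0.04 in the flanks. The Trim58 to Trim11 cluster on chromosome 11 was 0.22 ± 0.05 above its flanks over 4 member probes, and the Gbp cluster of chromosome 3 was 0.14 ± 0.04 above. The Klr cluster lay at -0.10 ± 0.03 and the Gbp cluster of chromosome 5 at -0.11 ± 0.04, and the other 7 clusters lay between -0.03 and 0.10. Genes in clusters had a median difference from neighbours of 0.00, with 21 lower and 18 higher, and the 66 members outside clusters had one of 0.07, with 9 lower and 25 higher. Of all genes 22.9% were lower and 25.7% higher, and the difference between members in and outside clusters was not tested.

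Genes of the same pathways outside the 9 prefixes were read for comparison from a list of 82, of which 58 had a probe. By limma 13 were lower than their neighbours and 11 higher, beside 22.9% and 25.7% of all genes, and their median difference was -0.02. Among 20 genes of inflammasomes and nucleic acid or Toll-like sensing 4 were lower and 6 higher, and among 28 interferon pathway genes 7 were lower and 3 higher. Mavs, the adaptor of RNA sensing, was 0.61 above its neighbours (limma adjusted p = 0.00843) and the immunoproteasome gene Psmb9 0.57 (limma adjusted p = 0.0026). Iigp1, an interferon-inducible GTPase gene, differed by -0.72 (limma adjusted p = 0.000703), Dhx58, an RNA sensor gene, by -0.57 (limma adjusted p = 0.00736) and Stat2, which transmits interferon signals, by -0.56 (limma adjusted p = 0.000914). Iigp1 has 2 probes, while Mavs, Psmb9, Dhx58 and Stat2 rest on 1 probe each. No gene of the list was as low as Nlrp1b, Nlrp1c-ps, Trim12a or Trim30b.

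The arrays were alike in dropped spots and in the share of probes above background, but less so in noise. Between 95 and 120 outlying spots were dropped per array, the SD of the noise between neighbouring probes ran from 0.25 in tumour 239 to 0.35 in tumour 252, and the signal cleared the scanner's background test at 99.0% or more of autosomal probes in either colour. Of the members, 66 rest on 1 probe, for which the 4 tumours repeat the same 60 bases or fewer. Probe GC content ran from 23.3% to 46.9%, with a median of 36.7%. Its linear correlation with the members' differences had an r of 0.00 over 490 probes and -0.03 over the 475 not low in all 4. A relation of another form, or at the extremes of GC content, was not tested. The 4 tumours came from separate mice, and their number limits the precision. Each SE and adjusted p covers only the spread between these tumours, read on the same probes against the same pool. Offsets of the pool or of a probe that all 4 arrays share are not in that spread. Nor is the spread among the probes of a gene, which had an SD of 2.59 at Nlrp1b.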

How the data were processed

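Tumour (Cy5) and pooled liver (Cy3) DNA were hybridised to 4 Agilent 2-colour arrays on 1 slide with no dye swap, per the labels and file headers. Per the submitters' processing notes, Agilent Feature Extraction 12.0.0 read the scans. The deposited intensity per colour had its background subtracted and its dyes normalised, per the file headers. The authors' deposited value table holds log10 ratios and was used as an alternative, as was the scanner's raw intensity after normexp with an offset of 50. Control spots (6575 of 180880) and outlier spots were dropped, spots of a probe averaged, and log2 ratios centred on each array's autosomal median, without further normalisation. Genes are means over probes. Gene ratios, and gene values minus the mean of at least 10 non-member probes within 1 Mb, were fitted over all 17965 named autosomal genes by limma 3.58.1 (R 4.3.3) against 0, with p-values adjusted by Benjamini-Hochberg and called below 0.05. The fit was first run on simulated data with known shifts and noise independent between arrays. Those data held no offsets shared by the arrays, so they cannot show how such offsets affect the calls. The pool counts as 1 control sample. Families, clusters and probes were described without a test. Named were the lowest and highest member of each family by difference from neighbours, called members with 2 or more probes and a difference of 0.5 or more, and 36 genes listed for known roles, of which 27 had probes. The unmatched 9 were H2-K1, H2-D1, H2-Ea, H2-T23, Klra8, Klrd1, Ifi203, Slfn1 and Trim5. Trim30b, Trim34a, Trim6, Trim36, Skint5, Skint6, Klra5, Klra22, Nlrp4a and Nlrp9a were added after their values were seen. Members and lists were chosen with earlier results of these data known. No mm9 annotation was used here, so exons and introns are not given. Python 3.11.15 was used for the rest.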

Additional observations from a re-analysis of the deposited data

Results flagged for a closer look

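For 63 gene, family and cluster values, each over 4 tumours, the gap between the outermost tumour and the nearest other was set against the whole range, a comparison that chance alone passes about 1 time in 20. It was passed by 2 of them. Slfn5 read -0.63 in tumour 252, against -0.31, -0.32 and -0.34 in the other tumours. Trim30d read -0.62 in tumour 244, against -0.16, -0.14 and -0.16.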

How the results depend on the processing

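No paired analysis was possible because the 4 tumours form 1 group against a common pool. Under normexp 58 members had raw ratios called lower (38.2%, against 27% of all genes) and 55 were called lower than their neighbours (36.2%, against 27.9%). Among genes with at least 3 probes 19 were lower (34.5%, against 15.3%) and 2 higher (3.64%, against 19.4%) by raw ratio, and 10 higher than their neighbours (18.2%, against 28.5%). Leaving out a tumour gave 19 to 30 lower and 18 to 27 higher by raw ratio, and 23 to 35 lower and 28 to 43 higher against neighbours. These counts have no share over all genes beside them, so they are not read as particular to the members. With thresholds of -0.5 and 0.4, 32 member probes were low (6.53%, against 3.21% of all probes) and 6 high (1.22%, against 2.53%) in all 4 tumours. Of the named genes, 11 changed sign under normexp, and the cause was not tested. Those called in either fit were Ifit2 (-0.14), Ifitm10 (0.0438), Slfn5 (0.0205), Trim45 (-0.44), Slfn9 (-0.85), Klrb1c (-0.40), Ifi202b (-0.39), Naip1 (-0.22), Skint7 (-0.18) and Ifih1 (0.13). Called changes of sign elsewhere were Naip1 with only bright probes (-0.16) and Ifih1 by the median over probes (0.15). Nlrp1b, Nlrp1c-ps and Trim12a kept their call and direction under every alternative run, at -3.36 to -1.60, -3.74 to -2.66 and -3.65 to -3.14. Over all alternatives for named genes, 483 values kept their side of the threshold, 23 came to pass it, 13 lost it and 12 changed sign with a call in either fit. Among the values counted as kept, 26 changed sign with no call in either. Under normexp family means were -0.20 (Klr), -0.0819 (Gbp), 0.16 (H2-), -0.16 (Ifi) and -0.18 (Trim), and means against neighbours -0.0464 (Klr), -0.0485 (Gbp), 0.10 (H2-), 0.0142 (Naip), -0.19 (Skint), -0.17 (Nlrp), -0.0497 (Ifi) and -0.11 (Trim). With only probes well above background in both colours the means against neighbours were -0.10 (Naip) and -0.18 (Nlrp). This setting drops Naip1 probe 3 and some of the low Nlrp1 probes. Cluster differences under normexp were -0.29 (Gbp, chromosome 5), 0.16 (H2-DMa to H2-Eb2), 0.0156 (H2-Q4 to H2-M9), -0.13 (Ifi), -0.18 (Klr), -1.51 (Nlrp1) and 0.14 (Nlrp9c to Nlrp9a). With only bright probes they were -0.0926 (Naip), -1.28 (Nlrp1) and -0.60 (Trim, chromosome 7). With flanks of 500 kb they were 0.18 (Gbp, chromosome 3), -0.0431 (H2-Q4 to H2-M9), -0.0614 (Klr), 0.0253 (Naip), -2.005 (Nlrp1), 0.0770 (Nlrp9c to Nlrp9a), -0.21 (Skint), 0.29 (Trim, chromosome 11) and -0.50 (Trim, chromosome 7). With gaps of at most 250 kb there were again 14 clusters, with the Klr cluster split and the Trim58 to Trim11 cluster lost. Centring on the mode, or none, moved no family mean log2 ratio by more than the spread between tumours. Tumour signal not well above background on any array limits 5 probes of the Nlrp1 run and 2 of the run beyond Trim30d to bounds, and 12 of 490 member probes were dim in a colour on at least 1 array.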
